A study of Mus musculus with 22 samples.

Results

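The genes of cholesterol and fatty acid synthesis were followed in mesenchymal stem cells (MSC), the stromal cells of bone marrow, and in leukaemia cells. The members are 31 named genes, found by symbol among the 27179 rows of the gene count matrix. They comprise 18 enzymes of sterol synthesis, 6 genes of sterol regulation and transport, and 7 genes of fatty acid synthesis. All 31 had a row, and all 31 passed the filter on low counts in every comparison.

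The study compared MSC with and without Lama4, the gene of a laminin chain of the extracellular matrix, alone and together with acute myeloid leukaemia (AML) cells. RNA of C57BL/6J mice was sequenced in 22 libraries. KO_MSC_AML (n = 3) are MSC of Lama4-/- mice sorted after 48 h of co-culture with AML cells, and WT_MSC_AML (n = 5) are wild type MSC from the same kind of co-culture. KO_MSC (n = 4) and WT_MSC (n = 4) are MSC of the same genotypes whose titles name no AML cells. All MSC came from mice of 10 to 14 weeks and had been expanded in culture from sorted marrow cells, so they are cultured cells and not fresh stroma. KO_AML (n = 3) and WT_AML (n = 3) are the AML cells sorted from co-culture with Lama4-/- and with wild type MSC. The AML cells themselves were wild type in both groups. They derive from lineage-negative, KIT-positive marrow cells of mice of 10 to 12 weeks, transduced by retrovirus with the human MLL-AF9 fusion gene. The labels do not say which replicates came from separate animals or cultures, so the p-values speak for the spread among these libraries, part of which may be technical. In such bulk samples, fewer cells of a type and less RNA per cell cannot be told apart.

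Cells build cholesterol from acetyl-CoA through mevalonate and squalene, in a chain of enzymes that also supplies farnesyl groups for other products. The transcription factors SREBP2 and SREBP1, encoded by Srebf2 and Srebf1, switch on these enzymes and those of fatty acid synthesis when membranes are short of sterol, and INSIG1 holds the factors back when sterol is plentiful. Sterol surplus acts in the other direction through the liver X receptors, whose target genes include Abca1 and Abcg1, which encode pumps that move cholesterol out of the cell. Proliferating cells need both sterols and fatty acids for new membrane.

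Of the 31 members, 24 matched promoter entries in RefSeq (GRCm38.p6), which gave 29 entries of 250 bases before to 50 bases after a start. The sterol regulatory element was searched as TCACNCCAC and the box bound by NF-Y, a factor that works beside SREBP, as CCAAT, on both strands. The element was in 1 of the 29 entries (3.45%, against 1.24% of the 32851 entries of the whole table) and the NF-Y box in 21 (72.4%, against 37.4%). The letters CACGTG, an E-box, were in 5 entries (17.2%, against 7.15%), and a liver X receptor repeat, 2 copies of AGGTCA parted by 4 bases, in 0 (against 0.0152%). Only 5 entries of the whole table held that exact repeat, so its absence among the members says nothing about them. Looser forms of the repeat were not searched. A match is a description of these letters and not a bound site. The sequences below are the 250 bases before the start of 4 genes that were lower in co-cultured Lama4-/- MSC, 1 of them the gene with the element, and of Abca1, which was higher. Capitals mark the element and the NF-Y boxes, which can overlap on opposite strands, as they do in Fasn.
Hmgcs1 (chr13:119690101-119690350, plus strand): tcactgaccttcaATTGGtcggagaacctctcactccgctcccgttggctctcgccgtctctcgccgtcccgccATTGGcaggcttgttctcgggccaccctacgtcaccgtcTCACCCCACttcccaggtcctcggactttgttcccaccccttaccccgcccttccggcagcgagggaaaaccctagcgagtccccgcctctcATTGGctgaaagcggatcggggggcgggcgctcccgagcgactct
Mvd (chr8:122443423-122443672, minus strand): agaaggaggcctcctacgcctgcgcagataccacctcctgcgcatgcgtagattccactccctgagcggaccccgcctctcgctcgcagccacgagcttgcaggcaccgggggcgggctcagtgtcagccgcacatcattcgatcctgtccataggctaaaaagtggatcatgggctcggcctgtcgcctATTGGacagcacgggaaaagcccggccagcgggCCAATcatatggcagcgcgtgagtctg
Nsdhl (chrX:72918271-72918520, plus strand): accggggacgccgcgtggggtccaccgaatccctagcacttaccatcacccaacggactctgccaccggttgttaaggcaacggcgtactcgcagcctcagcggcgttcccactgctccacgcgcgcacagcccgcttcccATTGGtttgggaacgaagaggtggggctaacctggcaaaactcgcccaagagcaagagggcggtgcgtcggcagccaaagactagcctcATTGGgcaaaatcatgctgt
Fasn (chr11:120824548-120824797, minus strand): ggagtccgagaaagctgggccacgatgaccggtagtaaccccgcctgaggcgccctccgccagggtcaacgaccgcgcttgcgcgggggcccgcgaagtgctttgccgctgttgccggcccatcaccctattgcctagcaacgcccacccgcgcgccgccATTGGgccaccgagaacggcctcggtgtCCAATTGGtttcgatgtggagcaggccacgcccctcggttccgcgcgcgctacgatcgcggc
Abca1 (chr4:53159896-53160145, minus strand): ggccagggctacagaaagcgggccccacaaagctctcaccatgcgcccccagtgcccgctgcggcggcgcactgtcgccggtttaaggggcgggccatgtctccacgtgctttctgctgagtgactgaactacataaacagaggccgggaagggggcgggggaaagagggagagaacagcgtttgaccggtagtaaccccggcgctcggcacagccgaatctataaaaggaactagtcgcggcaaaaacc

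In the sequence of Hmgcs1 the element stands 137 bases before the start, read as TCACCCCAC. In these 250 bases, 7 of the 9 genes with an entry that were lower in KO_MSC_AML than in WT_MSC_AML held an NF-Y box, as did 12 of the 15 other genes with an entry, and the Abca1 window held none.

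The libraries hold 11201751 to 24826876 counts. Levels are given in CPM, the count of a gene relative to the total of its library, scaled by TMM over all 22 libraries. A level per kb divides CPM by the length of the principal transcripts of the gene. Lama4 followed the labels, with at most 1.04 CPM in the 7 libraries of Lama4-/- MSC against at least 201 CPM in the 9 libraries of wild type MSC. One field of KO_MSC_AML replicate 3 names AML cells, against its title. Its Col1a1, a collagen chain of stroma, was 17763 CPM and its Ptprc, the blood cell marker CD45, 0.52 CPM, and it was kept in its titled group. The 8 stromal markers summed to 28359 CPM or more in every MSC library and to 375 CPM or less in every AML library. Of adipocyte markers, Adipoq was at most 0.143 CPM and Plin1 at most 0.54 CPM in KO_MSC_AML. Fabp4 stood at 114 to 172 CPM there and at 77.6 to 109 CPM in WT_MSC_AML. Pparg went the other way, with 9.95 to 19.3 CPM in KO_MSC_AML and 48.3 to 60.2 CPM in WT_MSC_AML. The 7 adipocyte markers summed to 188 to 289 CPM in KO_MSC_AML and 216 to 260 CPM in WT_MSC_AML. Of 6 macrophage markers, 3 had 0 counts in KO_MSC_AML, C1qa and Adgre1 among them, and the 6 summed to 3.76 to 5.40 CPM in KO_MSC_AML and 2.65 to 6.30 CPM in WT_MSC_AML. WT_MSC replicate 1 stood apart from the other WT_MSC libraries, with a chi-square of 194 to 243 per degree of freedom against 4.42 to 8.31 among the other 3. Pairs of libraries ran from 6.90 to 121 within KO_MSC and from 35.4 to 123 within KO_MSC_AML.

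Per kb of exon, Scd2, a stearoyl-CoA desaturase, and Acly, the enzyme that makes cytosolic acetyl-CoA, had the highest levels among the members in all 4 MSC groups. In KO_MSC_AML they stood at 94 and 54 CPM per kb, against 130 and 67.2 CPM per kb in WT_MSC_AML. In AML cells Fdps, farnesyl diphosphate synthase, led with 87.6 CPM per kb in KO_AML and 96.9 CPM per kb in WT_AML. Abcg1 was the lowest in the 4 MSC groups (0.941 CPM per kb in KO_MSC_AML and 0.0825 CPM per kb in WT_MSC_AML), and Abca1 in both AML groups.

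**Figure D1:**
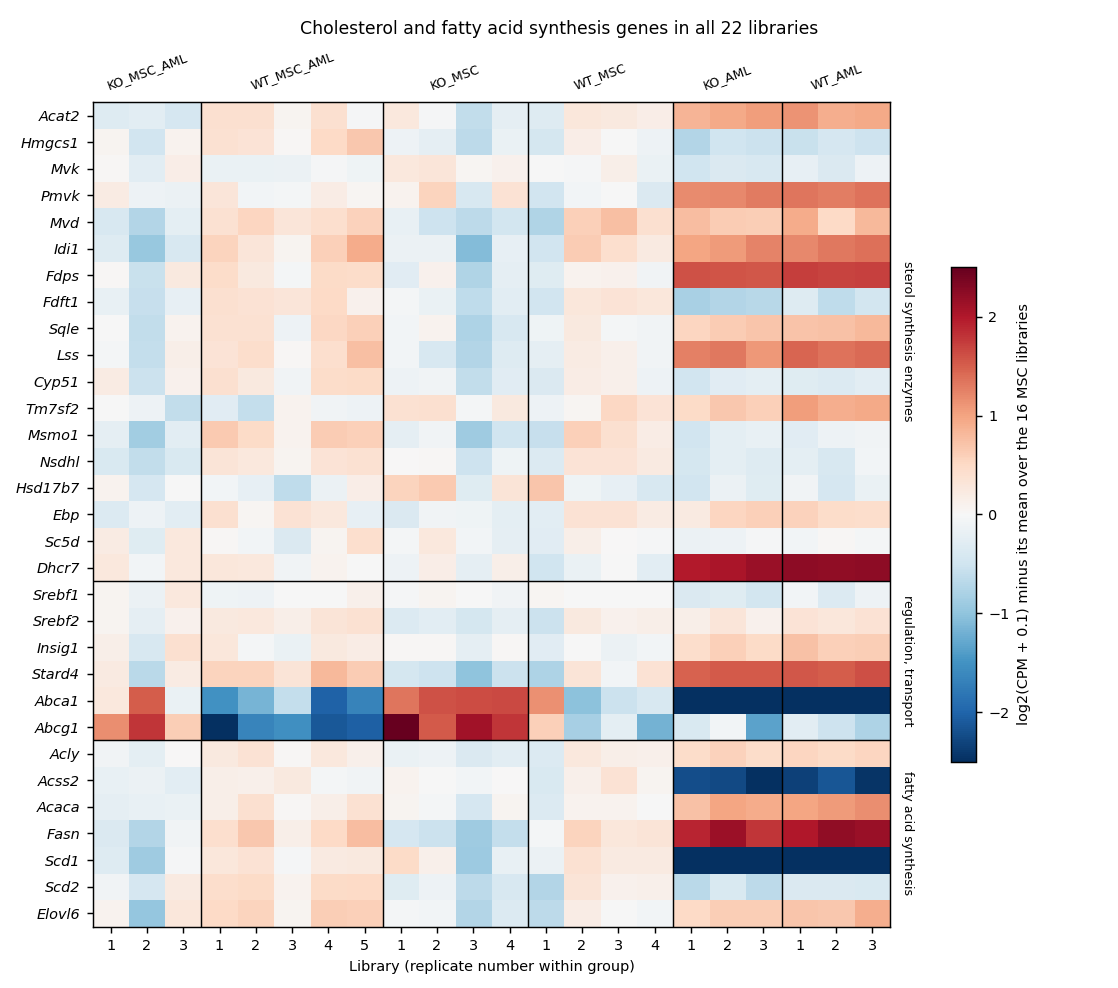
Level of each of the 31 members (rows) in each of the 22 libraries (columns, by group and replicate number), as log2(CPM + 0.1) minus the mean of the gene over the 16 MSC libraries; red is above and blue below that mean, and colours stop at 2.5 in either direction. Most enzymes are blue in KO_MSC_AML replicate 2, KO_MSC replicate 3 and WT_MSC replicate 1, Abca1 and Abcg1 are red there, and the AML columns are dark blue at Abca1, Acss2 and Scd1.

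The first comparison asks what Lama4 genotype does to MSC that met AML cells. In KO_MSC_AML against WT_MSC_AML, 13 of the 31 members were lower and 2 higher at an edgeR adjusted p under 0.05, where 14.5% and 16.9% of all 13710 genes tested were lower and higher. The enzymes of sterol and fatty acid synthesis made up 12 of the 13, and the 2 higher genes were the cholesterol pumps Abca1 and Abcg1. Of the 18 sterol enzymes 8 fell and 0 rose, and of the 7 fatty acid genes 4 fell and 0 rose. The median log2 fold change was −0.36 over the 24 sterol members and −0.46 over the 7 fatty acid members, against −0.01 over all genes tested. Every KO_MSC_AML library was below every WT_MSC_AML library for 12 members and above for 2, against 16.3% and 17.2% of all genes.

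Along the mevalonate steps, Idi1, the isomerase of isopentenyl diphosphate (chr13:8885501-8892451), had 25.3, 16.4 and 23.8 CPM in KO_MSC_AML, against 46.3, 38.8, 33.2, 47.5 and 60.3 CPM in WT_MSC_AML. The highest KO_MSC_AML library lay below the lowest WT_MSC_AML library. Its log2 fold change was −1.04 (SE 0.20, edgeR adjusted p = 0.00324). Mvd, mevalonate diphosphate decarboxylase (chr8:122433601-122443422), had 16.7, 13.3 and 18.7 CPM in KO_MSC_AML, against 28.9, 32.2, 27.5, 29.9 and 33.1 CPM in WT_MSC_AML. Again no library of one group reached the other, with a log2 fold change of −0.89 (SE 0.13, edgeR adjusted p = 0.000726). Acat2, which makes the acetoacetyl-CoA used at the first step, differed by −0.59 and Hmgcs1, HMG-CoA synthase, by −0.47. Hmgcs1 overlapped between the groups, since WT_MSC_AML replicate 3 had 96 CPM against 99.9 CPM in KO_MSC_AML replicate 3. Mvk (0.12), Pmvk (−0.10) and Fdps (−0.38), 3 other enzymes of this stretch, did not pass the test.

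On the squalene and sterol steps, Msmo1, a methylsterol monooxygenase (chr8:64718139-64733792), had 58.4, 37.6 and 57.4 CPM in KO_MSC_AML, against 108, 95.7, 72.7, 106 and 103 CPM in WT_MSC_AML. No library of one group reached the other, and the log2 fold change was −0.92 (SE 0.17, edgeR adjusted p = 0.00249). Nsdhl, a dehydrogenase that decarboxylates sterol intermediates and lies on the X chromosome (chrX:72918557-72958514), had 32.4, 27.7 and 32.5 CPM in KO_MSC_AML, against 52.8, 51.2, 44.7, 53.9 and 55.3 CPM in WT_MSC_AML. The libraries within each group lay close together, with a log2 fold change of −0.73 (SE 0.11, edgeR adjusted p = 0.000632). Fdft1, squalene synthase (chr14:63145150-63179578), had 45.4, 34.3 and 44.6 CPM in KO_MSC_AML, against 68.3, 65.6, 63.5, 72.2 and 55.2 CPM in WT_MSC_AML. The groups did not overlap (log2 fold change −0.64, SE 0.13, edgeR adjusted p = 0.00343), but the exons of Fdft1 overlap those of Ctsb on the other strand, and the strand setting of the counting is not given in the sources used here. Lss, lanosterol synthase, differed by −0.54 with overlapping libraries.

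The other enzymes of these steps did not pass. Sqle, squalene epoxidase (−0.51), Cyp51 (−0.34) and the X-linked isomerase gene Ebp (−0.42) had negative fold changes. Hsd17b7 (0.07), Sc5d (0.05), Dhcr7 (0.06) and Tm7sf2 (−0.04), enzymes of the steps after lanosterol, lay near 0. Reads of Hmgcs1, Idi1, Lss, Cyp51 and Srebf1 could in part belong to genes on the other strand whose exons overlap theirs.

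Among the regulators, Abca1 (chr4:53030787-53159895) had 77.5, 186 and 57.9 CPM in KO_MSC_AML, against 22.5, 28.8, 43.1, 15.9 and 20.2 CPM in WT_MSC_AML. All 3 KO_MSC_AML libraries were above all 5 WT_MSC_AML libraries, and replicate 2 stood far above the other 2. The log2 fold change was 2.06, and 1.38 without that replicate. Abcg1 (chr17:31057675-31117988) had 5.09, 7.91 and 3.47 CPM in KO_MSC_AML, against 0.162, 0.636, 0.706, 0.435 and 0.466 CPM in WT_MSC_AML. It rested on few reads, 224 counts over KO_MSC_AML against 45 over WT_MSC_AML, a ratio of 11.6 after scaling (exact 95% interval 8.37 to 16.3, counting error only). Its log2 fold change was 3.51 (SE 0.43, edgeR adjusted p = 0.000208). Stard4, a carrier of cholesterol between membranes, had 18.4, 9.76 and 18 CPM in KO_MSC_AML, against 23.1, 23.1, 19.6, 27.5 and 24.3 CPM in WT_MSC_AML (log2 fold change −0.61), with every KO_MSC_AML library below every WT_MSC_AML library. Srebf2 (−0.27), Srebf1 (0.10) and Insig1 (−0.01) did not pass.

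Of the fatty acid genes, Fasn, fatty acid synthase (chr11:120805846-120824547), had 117, 89.8 and 141 CPM in KO_MSC_AML, against 201, 237, 165, 210 and 257 CPM in WT_MSC_AML. The groups did not overlap, and the log2 fold change was −0.88 (SE 0.17, edgeR adjusted p = 0.00308). Acaca, the carboxylase that makes malonyl-CoA (chr11:84129672-84401651), had 33.6, 34.3 and 35.1 CPM in KO_MSC_AML, against 43.1, 52, 40, 43.6 and 50.9 CPM in WT_MSC_AML. The KO_MSC_AML libraries were nearly equal and all below WT_MSC_AML (a log2 difference of −0.41, SE 0.11, edgeR adjusted p = 0.0189). Scd1, a stearoyl-CoA desaturase (chr19:44394455-44407879), had 139, 94.4 and 171 CPM in KO_MSC_AML, against 212, 224, 170, 204 and 206 CPM in WT_MSC_AML. The highest KO_MSC_AML library lay just above the lowest WT_MSC_AML library (log2 fold change −0.58, SE 0.17, edgeR adjusted p = 0.0228). Its paralog Scd2 differed by −0.46, and the split of reads between these similar genes is uncertain. Acly (−0.30), Acss2, which makes acetyl-CoA from acetate (−0.26), and the elongase gene Elovl6 (−0.58) did not pass.

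The calls were not equally firm. In all 8 fits that left out 1 library, 9 members were called: Acat2, Fasn, Fdft1, Idi1, Msmo1, Mvd and Nsdhl as lower, and Abca1 and Abcg1 as higher. Hmgcs1 (−0.56 to −0.32), Lss (−0.70 to −0.36) and Scd2 (−0.62 to −0.32) were called only without WT_MSC_AML replicate 3 or KO_MSC_AML replicate 3. Stard4 (−0.75 to −0.37) was called without WT_MSC_AML replicate 3 or KO_MSC_AML replicate 1 or 3. Scd1 (−0.78 to −0.39) was lost without WT_MSC_AML replicate 1 or 2 or KO_MSC_AML replicate 1 or 2, and Acaca (−0.44 to −0.35) without WT_MSC_AML replicate 2 or KO_MSC_AML replicate 1. KO_MSC_AML replicate 2 had the lowest level of the 3 for most enzymes, and without it 10 members were called, with Stard4 at −0.37 and Hmgcs1 at −0.32.

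**Figure D2:**
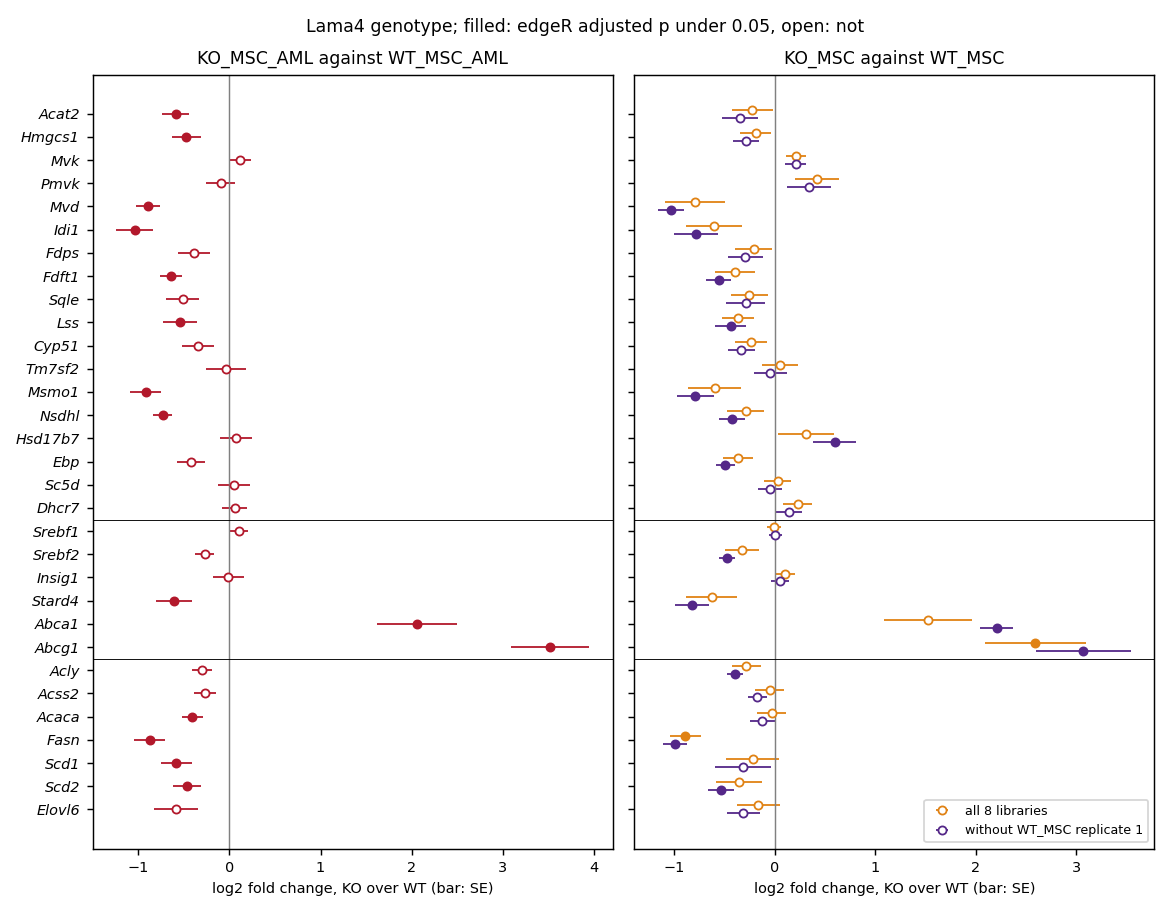
Log2 fold change of each member (rows) by Lama4 genotype, with bars of 1 SE; the left panel is KO_MSC_AML against WT_MSC_AML and the right panel KO_MSC against WT_MSC with all 8 libraries (orange) and without WT_MSC replicate 1 (purple), where filled points have an edgeR adjusted p under 0.05. Filled points below 0 are 13 on the left, 1 among the orange and 12 among the purple, and Abca1 and Abcg1 lie far to the right in both panels.

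Other markers moved with genotype beside these members. The 8 stromal markers summed to 41283 to 47860 CPM in KO_MSC_AML and 32322 to 34879 CPM in WT_MSC_AML. Of the 8, 4 were called higher and 0 lower, where 16.9% and 14.5% of all genes were. The fold changes of 5 were above 0 and of 3 below. Cxcl12 had 291 to 1268 CPM in KO_MSC_AML and 1354 to 2851 CPM in WT_MSC_AML. The 4 endothelial markers summed to 6.72 to 18.8 CPM in KO_MSC_AML and 1.49 to 4.45 CPM in WT_MSC_AML, nearly all of it in Lama4-/- cells from Tek (5.68 to 17.0 CPM), while Cdh5 was at most 0.221 CPM. Their part in the result was not tested. Proliferation genes moved too. All 6 proliferation markers tested were lower in KO_MSC_AML (median log2 fold change −1.60), and Mki67 had 25.2 to 60.2 CPM in KO_MSC_AML against 79.9 to 182 CPM in WT_MSC_AML. The 3 KO_MSC_AML libraries had Xist, made by the inactive X chromosome, at 371 to 470 CPM and the Y-linked Ddx3y at 0 to 0.926 CPM. The 5 WT_MSC_AML libraries had Xist at 1.29 to 7.42 CPM and Ddx3y at 50.8 to 60.2 CPM. Genotype and these sex-linked transcripts cannot be told apart in this comparison, and the part of proliferation in it was not tested. Transcripts of blood cells were few: the 8 blood markers summed to 49.2 to 213 CPM in KO_MSC_AML and 84 to 304 CPM in WT_MSC_AML, which is 0.45% to 1.71% and 0.788% to 2.68% of their mean level in AML cells.

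**Figure D3:**
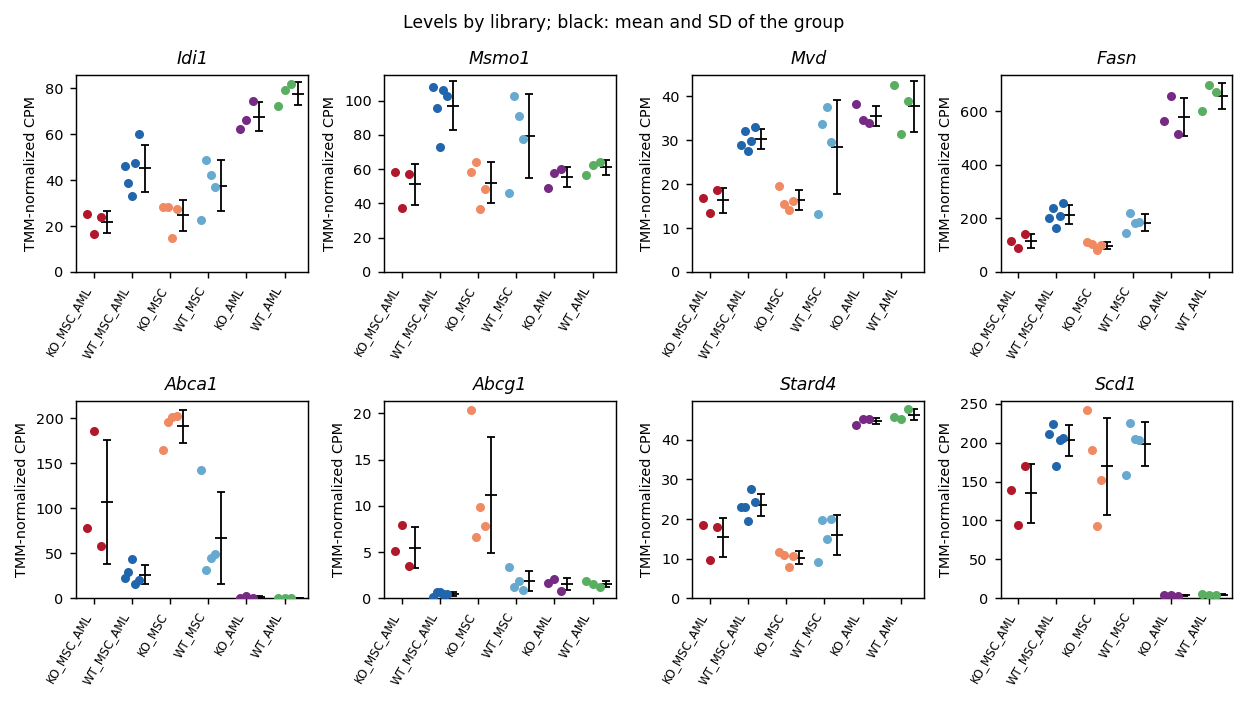
CPM of 8 members in every library, by group; points are libraries, and black bars are the group mean and SD. Idi1, Msmo1, Mvd and Fasn are lower in KO_MSC_AML than in WT_MSC_AML without overlap, Abca1 and Abcg1 are higher, and Abca1 and Scd1 lie near 0 in AML cells, where Fasn and Stard4 are highest.

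The same question was put to MSC without AML cells. In KO_MSC against WT_MSC with all 8 libraries, 1 of the 31 members rose and 1 fell, where 5.24% and 6.34% of 13344 genes rose and fell. Abcg1 had 20.4, 6.66, 9.86 and 7.85 CPM in KO_MSC, against 3.42, 1.21, 1.85 and 0.927 CPM in WT_MSC. Every KO_MSC library was above every WT_MSC library (log2 fold change 2.60, SE 0.50, edgeR adjusted p = 0.0276). Fasn had 112, 103, 80.3 and 99.1 CPM in KO_MSC, against 144, 221, 183 and 186 CPM in WT_MSC. Here every KO_MSC library was below every WT_MSC library (log2 fold change −0.89, SE 0.15, edgeR adjusted p = 0.0210). Abca1 was the third member without overlap, with 164, 196, 201 and 202 CPM in KO_MSC against 143, 31.7, 44.4 and 48.8 CPM in WT_MSC, but it did not pass (log2 fold change 1.53, SE 0.44, edgeR adjusted p = 0.0571). So 2 members lay wholly above and 1 wholly below, against 8.68% and 9.58% of all genes. The median log2 fold change was −0.22 over the sterol members and −0.22 over the fatty acid members, against 0.01 over all genes.

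These counts turned on WT_MSC replicate 1. Mvd was 13.2 CPM in that library and 29.6 to 37.6 CPM in replicates 2 to 4, and Msmo1 was 45.9 CPM there and 77.3 to 103 CPM in the others. Its Mki67 was 10.2 CPM, close to the 3.09 to 9.04 CPM of KO_MSC, and it had Xist at 232 CPM and Ddx3y at 0.881 CPM. Without it, 12 members were lower and 3 higher, where 21.9% and 24.1% of 13558 genes were lower and higher. The 12 were Mvd (−1.03), Fasn (−0.99), Stard4 (−0.82), Msmo1 (−0.79), Idi1 (−0.78), Fdft1 (−0.56), Scd2 (−0.54), Ebp (−0.49), Srebf2 (−0.47), Lss (−0.44), Nsdhl (−0.43) and Acly (−0.40). The 3 were Abcg1 (3.07), Abca1 (2.21) and Hsd17b7 (0.60), a ketosteroid reductase of the pathway. Without WT_MSC replicate 2, 3 or 4, or without KO_MSC replicate 2 or 4, 0 members were called, although the fold changes of Abcg1 (2.14 to 3.07) and Fasn (−0.99 to −0.80) kept their direction in all 8 such fits.

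Of the 15 members called in KO_MSC against WT_MSC without WT_MSC replicate 1, and of the 15 called in KO_MSC_AML against WT_MSC_AML, 11 were the same (73.3% of each). Over all genes tested in both fits, 3216 were called in both, 52.9% of those called in MSC alone and 75.9% of those called in co-cultured MSC, so the share for the members is not apart from that of genes at large on the co-culture side. The 2 comparisons share no library. With only WT_MSC replicates 2, 3 and 4 and KO_MSC replicates 2 and 4, which have Ddx3y and under 5 CPM of Xist, 16 members were lower and 5 higher, where 29.8% and 30.2% of 13622 genes were. This choice of libraries was made after seeing the data. It keeps libraries that lay close together, with a chi-square per degree of freedom of 4.42 to 8.31 within WT_MSC and 6.90 within KO_MSC. The other pairs of KO_MSC libraries stood at 57 to 121. The calls rest on that small spread, part of which may be technical. In that subset Mvd differed by −1.08, Idi1 by −0.62, Msmo1 by −0.68, Fasn by −0.96, Abca1 by 2.27 and Abcg1 by 2.45, and X-linked Nsdhl by −0.35. All 6 proliferation markers were lower in KO_MSC with all 8 libraries (median −3.56). The 4 endothelial markers summed to 7.54 to 22.4 CPM in KO_MSC and 0.728 to 5.86 CPM in WT_MSC, mostly Tek. The part of either was not tested.

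**Figure D4:**
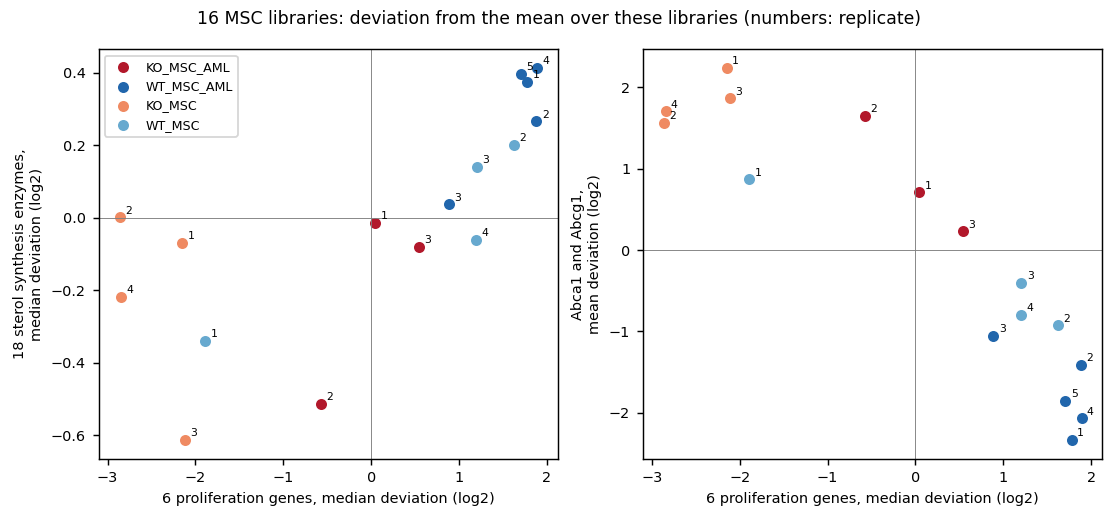
Each point is 1 of the 16 MSC libraries with its replicate number; the x axis is the median deviation of 6 proliferation genes from their mean over these libraries (log2), and the y axis is the median deviation of the 18 sterol enzymes (left) or the mean deviation of Abca1 and Abcg1 (right). WT_MSC_AML lies at the upper right of the left panel and lower right of the right panel, and KO_MSC at the opposite side in both. On the x axis WT_MSC replicate 1 (−1.89) lies just to the right of the KO_MSC libraries (−2.86 to −2.12).

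Over the 16 MSC libraries the levels of the lists can be read library by library. The median deviation of the 18 sterol enzymes from their mean ran from −0.51 to −0.02 in KO_MSC_AML, against 0.04 to 0.41 in WT_MSC_AML. It ran from −0.61 to 0.00 in KO_MSC, against −0.34 to 0.20 in WT_MSC, where the lowest value was replicate 1. The mean deviation of Abca1 and Abcg1 ran from 0.23 to 1.65 in KO_MSC_AML, against −2.33 to −1.06 in WT_MSC_AML. Within KO_MSC the sterol enzymes of replicate 3 were the lowest, and within KO_MSC_AML those of replicate 2.

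Contact with AML cells was compared within each genotype. In WT_MSC_AML against WT_MSC, 0 of the 31 members passed the edgeR test, where 0.744% of 13439 genes did. At an unadjusted p under 0.05 there were 10 members, against 18.3% of all genes, and DESeq2 called 2, Abca1 and Abcg1, as lower, against 1.93% of all genes. The members with the smallest p were Abcg1 (−1.95 on the log2 scale, SE 0.49, edgeR adjusted p = 0.132) and Hmgcs1 (0.47, SE 0.14, edgeR adjusted p = 0.165) of the sterol genes, and Elovl6 (0.58, SE 0.17, edgeR adjusted p = 0.162) and Acaca (0.26, SE 0.12, edgeR adjusted p = 0.280) of the fatty acid genes. Abcg1 stood at 0.162 to 0.706 CPM in WT_MSC_AML and at 0.927 to 3.42 CPM in WT_MSC, without overlap. The median log2 fold change was 0.21 over the sterol members and 0.21 over the fatty acid members, against 0.00 over all genes, and 25 of the 31 fold changes were above 0, as were 6650 of the 13439 over all genes. Leaving out 1 library at a time gave medians of 0.08 to 0.25 and 0.12 to 0.30. These values include WT_MSC replicate 1, which stood apart. Xist ran from 0.179 to 232 CPM in WT_MSC and Mki67 from 10.2 to 118 CPM. In WT_MSC_AML they ran from 1.29 to 7.42 CPM and from 79.9 to 182 CPM. The part of that library and of these transcripts was not tested.

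In KO_MSC_AML against KO_MSC, 0 members passed the edgeR test, where 0.743% of 13452 genes did, and DESeq2 called 0. At an unadjusted p under 0.05 there were 4 members, against 24.5% of all genes. The smallest p belonged to Srebf2 (0.29 on the log2 scale, SE 0.11, edgeR adjusted p = 0.175) and Tm7sf2 (−0.51, SE 0.21, edgeR adjusted p = 0.187), and to Acss2 (−0.22, SE 0.10, edgeR adjusted p = 0.228) and Scd2 (0.27, SE 0.18, edgeR adjusted p = 0.380). Abca1 had 77.5, 186 and 57.9 CPM in KO_MSC_AML, against 164, 196, 201 and 202 CPM in KO_MSC, and the groups overlapped through replicate 2. Without that replicate Abca1 was called lower and Stard4 higher, where 7.06% of 13730 genes were called in either direction. Without KO_MSC replicate 3, Hsd17b7 and Nsdhl were called lower, where 9.93% of 13331 genes were called. Both counts of members, 2 of 31, are near these shares. The medians were −0.03 over the sterol members and 0.11 over the fatty acid members, against 0.00 over all genes. In this comparison 5 of 6 proliferation markers were higher in KO_MSC_AML. Sex-linked transcripts differed as well. Xist stood at 371 to 470 CPM in KO_MSC_AML and 2.15 to 297 CPM in KO_MSC. Ddx3y stood at 0 to 0.926 CPM in KO_MSC_AML and 1.82 to 69.6 CPM in KO_MSC. Their part was not tested.

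Whether the response to AML cells differed between genotypes was tested as an interaction over the 16 MSC libraries. The edgeR test called 0 members and 0.0% of 14247 genes, and DESeq2 called 0 members. At an unadjusted p under 0.05 there were 0 members, against 7.73% of all genes. The smallest p belonged to Nsdhl (log2 difference −0.45, SE 0.21, edgeR adjusted p = 0.649) and Pmvk (−0.52, SE 0.27, edgeR adjusted p = 0.675), and to Acaca (−0.39, SE 0.18, edgeR adjusted p = 0.646) and Elovl6 (−0.43, SE 0.34, edgeR adjusted p = 0.812). The medians were −0.15 over the sterol members and −0.22 over the fatty acid members, against 0.02 over all genes. Leaving out 1 library at a time gave medians of −0.25 to −0.09 and −0.33 to −0.10. Of the log2 differences, 24 of the 31 were below 0, 17 of them among the 18 sterol enzymes, as were 6764 of the 14247 over all genes. These signs were counted with WT_MSC replicate 1, which stood apart, and their dependence on it was not tested. The list medians themselves were not tested, and all 6 proliferation markers had positive differences, of which 0 passed. The MSC groups also differed in Xist and Ddx3y, as given above. The part of these sex-linked transcripts in the interaction was not tested, for X-linked Nsdhl or any other member.

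The AML cells were compared by the genotype of the MSC they had met. In KO_AML against WT_AML, 0 members passed the edgeR test, where 0.0482% of 12444 genes did, and DESeq2 called 0. At an unadjusted p under 0.05 there were 8 members, against 5.75% of all genes. The fold changes were small and mostly below 0: 28 of the 31 were, against 6260 of the 12444 over all genes, with medians of −0.09 over the sterol members and −0.16 over the fatty acid members. Tm7sf2, a sterol reductase, had 10.6, 12 and 11.4 CPM in KO_AML, against 15.7, 14.3 and 14.6 CPM in WT_AML (log2 fold change −0.37, SE 0.12, edgeR adjusted p = 0.736). Its exons overlap those of Vps51 on the same strand. Fdft1 (−0.25, SE 0.09, edgeR adjusted p = 0.859), Scd2 (−0.18, SE 0.06, edgeR adjusted p = 0.802) and Acaca (−0.16, SE 0.07, edgeR adjusted p = 0.867) followed. Every KO_AML library was below every WT_AML library for 9 members and above for 0, against 7.18% and 3.38% of all genes.

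The third set of comparisons places AML cells beside the MSC of the same kind of co-culture. It shares the co-cultured MSC libraries with the genotype comparison above. In WT_AML against WT_MSC_AML, 16 members were higher and 9 lower, where 39.1% and 42.9% of 14133 genes were. In KO_AML against KO_MSC_AML, 14 members were higher and 9 lower, where 38.8% and 41.1% of 13620 genes were. All 6 proliferation markers were higher in AML cells too, with a median log2 fold change of 3.66 in the Lama4-/- pair and 1.95 in the wild type pair. Most genes passed the test, and so did most members. In both pairs more members were higher than lower, while over all genes more were lower than higher. That balance was not tested, and the sizes matter more.

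Both groups of AML cells had little of the pump Abca1 and the desaturase Scd1. Abca1 had 0, 2.32 and 0.73 CPM in KO_AML, against 77.5, 186 and 57.9 CPM in KO_MSC_AML, and 0.0372, 0 and 0.634 CPM in WT_AML, against 15.9 to 43.1 CPM in WT_MSC_AML. The ratio of summed counts after scaling was 0.0102 in KO_AML against KO_MSC_AML (63 against 4395 counts, exact 95% interval 0.00783 to 0.0131) and 0.00796 in WT_AML against WT_MSC_AML (13 against 2419 counts, 0.00423 to 0.0136). The fitted log2 fold change in the wild type pair was −6.94 (SE 0.66, edgeR adjusted p = 2.04e-06). Transcripts in AML libraries were also set against their mean over the co-cultured MSC of both genotypes together. The 8 MSC markers reached 0.207% to 1.13% of it in KO_AML and 0.445% to 0.837% in WT_AML, and Abca1 reached 0% to 4.11% and 0% to 1.12%. For Abca1 that mean joins unlike levels, 107 CPM in KO_MSC_AML and 26.1 CPM in WT_MSC_AML, so its 2 ranges are not shares of the MSC of the same co-culture. The part of carried-over MSC RNA in these low values was not tested.

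Scd1 had 4, 4.49 and 2.87 CPM in KO_AML, against 94.4 to 171 CPM in KO_MSC_AML, and 5.39, 4.44 and 3.75 CPM in WT_AML, against 170 to 224 CPM in WT_MSC_AML. The log2 fold changes were −5.13 (SE 0.28, edgeR adjusted p = 3.52e-06) in the Lama4-/- pair and −5.47 (SE 0.15, edgeR adjusted p = 5.25e-11) in the wild type pair. These levels are 1.62% to 2.53% in KO_AML and 2.11% to 3.04% in WT_AML of the mean over co-cultured MSC of both genotypes. Acss2 was lower in AML cells too, by −2.17 (SE 0.18, edgeR adjusted p = 1.77e-05) in KO_AML and −2.41 (SE 0.14, edgeR adjusted p = 1.38e-08) in WT_AML, though its exons overlap those of Gss and of an antisense gene. Scd2, in contrast to its paralog, stayed at 338 to 412 CPM in KO_AML against 404 to 628 CPM in KO_MSC_AML, and at 415 to 418 CPM in WT_AML against 571 to 756 CPM in WT_MSC_AML.

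Several enzymes stood higher in AML cells. Dhcr7, which makes cholesterol from 7-dehydrocholesterol at the end of the pathway (chr7:143823145-143848410), had 76.7, 79.9 and 85.8 CPM in KO_AML, against 23.1, 18.4 and 23.1 CPM in KO_MSC_AML (log2 fold change 1.93, SE 0.12, edgeR adjusted p = 4.25e-06). It had 91.6, 90.1 and 90.7 CPM in WT_AML, against 23.3, 23, 18.1, 20.5 and 19.2 CPM in WT_MSC_AML (2.12, SE 0.10, edgeR adjusted p = 1.78e-09). Fasn had 563, 655 and 514 CPM in KO_AML and 601, 697 and 669 CPM in WT_AML, above every MSC library, with log2 fold changes of 2.35 (SE 0.19, edgeR adjusted p = 1.46e-05) in the Lama4-/- pair and 1.62 (SE 0.13, edgeR adjusted p = 2.52e-07) in the wild type pair. Fdps differed by 1.66 (SE 0.18, edgeR adjusted p = 7.51e-05) between KO_AML and KO_MSC_AML and by 1.38 (SE 0.11, edgeR adjusted p = 3.22e-07) between WT_AML and WT_MSC_AML. Pmvk, phosphomevalonate kinase, differed by 1.28 (SE 0.15, edgeR adjusted p = 0.000111) in the Lama4-/- pair and by 1.25 (SE 0.11, edgeR adjusted p = 8.61e-07) in the wild type pair. Exons of Fdps overlap those of another gene on the same strand, so its counts are uncertain.

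In the Lama4-/- co-culture, Idi1 (1.66, SE 0.17, edgeR adjusted p = 5.43e-05), Acat2 (1.31, SE 0.12, edgeR adjusted p = 2.45e-05) and Mvd (1.15, SE 0.15, edgeR adjusted p = 0.000173) were among the 6 sterol members with the smallest p. In the wild type co-culture, Lss (0.99, SE 0.13, edgeR adjusted p = 2.14e-05) and Stard4 (0.98, SE 0.11, edgeR adjusted p = 4.54e-06) were. Stard4 (1.57) and Lss (1.39) were higher in the Lama4-/- pair as well, and Idi1 (0.78), Acat2 (0.74) and Mvd (0.32) in the wild type pair. The other members higher in KO_AML and in WT_AML than in the MSC of their co-culture were Acly (0.63 in KO_AML and 0.31 in WT_AML), Acaca (1.10 and 0.84), Tm7sf2 (0.85 and 1.16), Sqle (0.81 and 0.38) and Ebp (0.73 and 0.30). Ebp in the wild type pair did not pass with RLE size factors, DESeq2, no filter or the replicate number as a block, nor without WT_MSC_AML replicate 2 or any of the 3 WT_AML libraries (0.27 to 0.33), Sqle did not pass without WT_AML replicate 3 (0.36), and Mvd in that pair did not pass without WT_MSC_AML replicate 1 (0.30) or WT_AML replicate 1 (0.22) or 3 (0.29).

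Not every enzyme was higher in AML cells. Hmgcs1 (−0.48 in KO_AML and −0.90 in WT_AML), Fdft1 (−0.40 and −0.80) and Scd2 (−0.47 and −0.77) were lower in both pairs. Cyp51 (−0.62), Msmo1 (−0.67) and Nsdhl (−0.52) were lower in WT_AML against WT_MSC_AML, and Mvk (−0.38) and Srebf1 (−0.43) in KO_AML against KO_MSC_AML. In the Lama4-/- pair these calls were the weak ones when 1 library was left out. Mvk (−0.44 to −0.24) and Fdft1 (−0.47 to −0.29) were then called only without KO_MSC_AML replicate 2. Hmgcs1 (−0.59 to −0.33) and Scd2 (−0.56 to −0.26) were called only without KO_MSC_AML replicate 2 or KO_AML replicate 2, and Srebf1 was lost without KO_AML replicate 3 (−0.38). Insig1 (0.55) was higher in the wild type pair. Hsd17b7, Sc5d, Srebf2 and Elovl6 passed in neither.

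**Figure D5:**
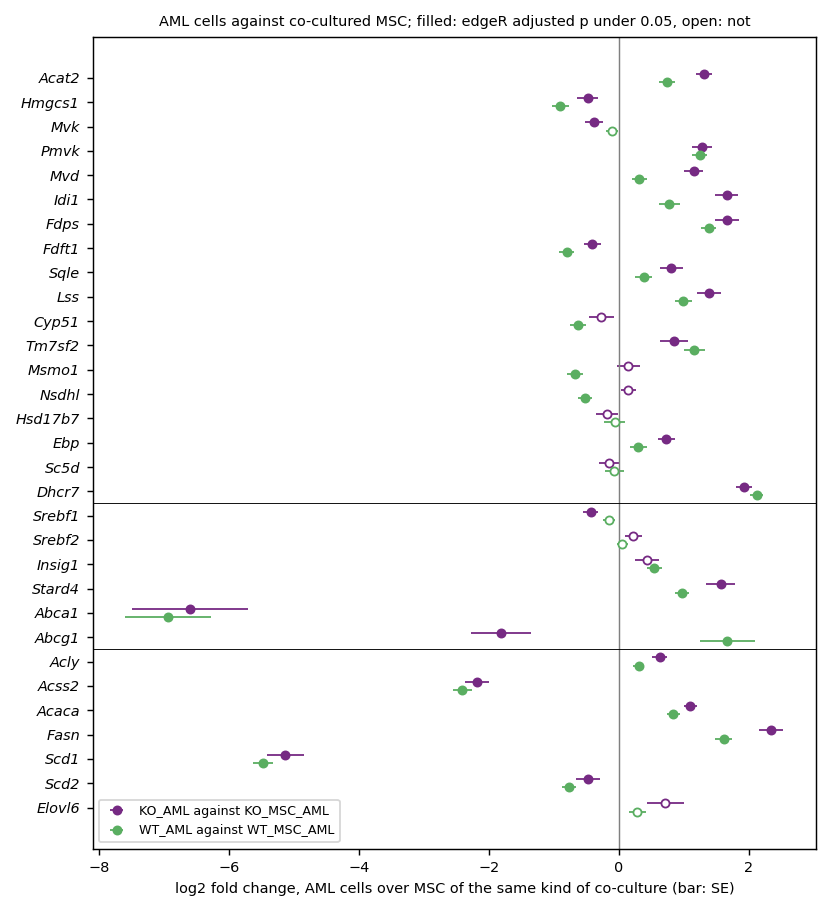
Log2 fold change of each member (rows) in AML cells against the co-cultured MSC, with bars of 1 SE, for the Lama4-/- co-culture (purple) and the wild type co-culture (green); filled points have an edgeR adjusted p under 0.05. Abca1, Scd1 and Acss2 lie far to the left in both, Dhcr7 and Fasn to the right, and Abcg1 is on opposite sides of 0.

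Abcg1 ran opposite ways in the 2 pairs, lower in KO_AML (log2 fold change −1.81) and higher in WT_AML (1.67). It had 1.69, 2.12 and 0.821 CPM in KO_AML, against 5.09, 7.91 and 3.47 CPM in KO_MSC_AML, and 1.82, 1.52 and 1.27 CPM in WT_AML, against 0.162 to 0.706 CPM in WT_MSC_AML. The levels in the AML groups overlapped, and those in MSC did not. The difference of the AML against MSC contrast between genotypes was tested over the 14 libraries of the 4 groups, a comparison added after seeing the data. It was −3.51 for Abcg1 (SE 0.62, edgeR adjusted p = 0.00270), and positive for Idi1 (0.85, SE 0.26, edgeR adjusted p = 0.0423), Mvd (0.81, SE 0.19, edgeR adjusted p = 0.0121), Msmo1 (0.79, SE 0.23, edgeR adjusted p = 0.0345) and Nsdhl (0.64, SE 0.15, edgeR adjusted p = 0.0154). These are 4 members higher and 1 lower, where 5.80% and 6.62% of 14536 genes were. All 6 proliferation markers were higher in this contrast as well (median 1.65), and their part was not tested. Both AML groups had Xist at 149 to 220 CPM and Ddx3y at 0.938 CPM or less. KO_MSC_AML had Xist at 371 to 470 CPM and Ddx3y at 0.926 CPM or less. WT_MSC_AML had Xist at 1.29 to 7.42 CPM and Ddx3y at 50.8 to 60.2 CPM. Genotype and these sex-linked transcripts cannot be told apart in this contrast either, X-linked Nsdhl included. Abcg1, Mvd and Nsdhl were called in all 14 fits that left out 1 library, while Idi1 (0.67 to 0.95) and Msmo1 (0.60 to 0.88) were not. All 5 were also among the members that differed between the co-cultured MSC, whose libraries this test shares.

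Other genes of the same pathways were followed as 3 lists of 12, 8 and 12 genes. In KO_MSC_AML against WT_MSC_AML, 2 of 12 genes that sense or handle sterols rose and 3 fell, where 16.9% of all genes rose and 14.5% fell, and the counts of risen genes in the 3 lists are near that share. Mylip, a liver X receptor target that marks lipoprotein receptors for breakdown (log2 fold change 1.62), and Nr1h2, which encodes liver X receptor β (0.49), rose. Nr1h3, which encodes liver X receptor α (0.26), and Lpcat3 (−0.15) did not pass. The activity of these receptors was not tested. Osbp, an oxysterol-binding protein (−0.48), and Soat1, which esterifies cholesterol (−0.43), fell, as did 1 other gene of the list. Of 8 genes that use farnesyl groups for other products, 1 rose (Fntb, 0.40) and 2 fell (Fnta, −0.55, and Pdss1, −1.03), of which Fnta and Fntb encode the 2 chains of farnesyltransferase. Of 12 genes of fatty acid elongation and supply, 2 rose, Slc25a1, the mitochondrial citrate carrier (0.71), and Elovl1 (0.31), and 4 fell, among them Acsl3, an acyl-CoA synthetase (−1.24), and the elongase gene Elovl5 (−0.67). The medians of the 3 lists were −0.05, −0.05 and 0.12.

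In KO_MSC against WT_MSC with all 8 libraries, Nr1h2 (0.50) rose and 3 of the 12 sterol handling genes fell, Mbtps2, a protease that releases SREBP (−0.52), and Tmem97, a sterol-binding membrane protein (−0.61), having the smallest p. Slc25a1 (0.58) rose and Hsd17b12 (−0.37) and Elovl5 (−0.69) fell among the 12 fatty acid supply genes, and 0 of the 8 farnesyl users passed (5.24% of all genes rose and 6.34% fell). In WT_MSC_AML against WT_MSC 0 genes of the 3 lists passed, and in KO_MSC_AML against KO_MSC 1 did, Fnta (−0.56). In KO_AML against WT_AML and in the interaction 0 passed. In KO_AML against KO_MSC_AML, 2 of the 12 sterol handling genes were higher and 6 lower, 4 of the 8 farnesyl users higher and 2 lower, and 4 of the 12 fatty acid supply genes higher and 2 lower. In WT_AML against WT_MSC_AML these counts were 1 and 7, 3 and 2, and 4 and 5. Over all genes 38.8% were higher and 41.1% lower in the Lama4-/- pair, and 39.1% and 42.9% in the wild type pair. Insig2, a partner of INSIG1, was lower by −2.90 in KO_AML and −3.02 in WT_AML, Nr1h3, which encodes liver X receptor α, by −4.31 and −4.01, and Me1, malic enzyme, by −3.63 and −3.58. Tmem97 was higher by 2.13 in KO_AML and 1.59 in WT_AML, and Mid1ip1, which activates acetyl-CoA carboxylase, by 1.03 and 0.70.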

How the data were processed

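RNA was sequenced with a read length of 75 bp, and the deposited raw count per gene is the unit used here. Reads were aligned with STAR (2.6.1d) and counted with featureCounts, per the submitters' processing notes, which name GRCm38 (mm10). The counting's strand setting is not given in the sources used here. The authors' deposited table also holds 22 columns of normalized values, which were not used. Rows with no gene symbol (1275, 0.501% to 0.825% of counts) were kept in the fits and in the shares over all genes. They were left out only where levels were looked up by symbol.

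The members and lists were chosen with earlier results of these data known. Each comparison was fitted over all genes of its own groups with edgeR 4.0.16 (limma 3.58.1, R 4.3.3), by TMM, filterByExpr and a robust two-sided quasi-likelihood F-test, with Benjamini-Hochberg adjustment and a threshold of 0.05. The SE is the log2 fold change divided by the root of F. Members past the threshold were named, and where over 12 passed, 6 sterol and 3 fatty acid members with the smallest p got full statistics. Where 0 passed, the 2 sterol and 2 fatty acid members with the smallest p were named. The difference between the pairs of AML cells and MSC was added after seeing the data. Alternatives were RLE size factors, DESeq2 1.42.0, no filter, the replicate number as a block, 1 model over 4 MSC groups and leaving out each library. Count intervals are exact at 95% and cover counting error only. The fits were tested on simulated data with the same fixed spread for all genes and no outlying library. Such data cannot show how the fits behave with the uneven spread of these groups. Coordinates and overlaps are from GENCODE vM21 (GRCm38).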

Additional observations from a re-analysis of the deposited data

Results flagged for a closer look

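Of 93 combinations of a member and a group of 4 or 5 libraries, 8 held a library whose gap to its nearest neighbour was large against the range of the group (Dixon's test at 95%, which chance passes in about 1 in 20 groups). In WT_MSC, replicate 1 had the lowest Fdft1 (36.9 CPM, the others 62.4 to 64.8 CPM), the highest Srebf1 (97.6 CPM, the others 93.8 to 94.2 CPM) and the highest Abca1 (142.6 CPM, the others 31.7 to 48.8 CPM), and replicate 2 had the highest Sqle (73.3 CPM, the others 57.3 to 59.5 CPM). In KO_MSC, replicate 3 had the lowest Idi1 (14.8 CPM, the others 27.4 to 28.4 CPM) and the lowest Insig1 (32.6 CPM, the others 38.7 to 39.0 CPM). In WT_MSC_AML, replicate 3 had the lowest Scd2 (571.0 CPM, the others 730 to 756 CPM) and the lowest Elovl6 (24.1 CPM, the others 32.3 to 35.2 CPM). WT_MSC_AML replicate 3 also had the lowest proliferation score of its group (0.89 against 1.71 to 1.89, log2), whose part was not tested.

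The difference between AML cells and MSC was itself different between the Lama4-/- and the wild type co-culture for 5 members by edgeR's test: Mvd (0.81), Idi1 (0.85), Msmo1 (0.79), Nsdhl (0.64) and Abcg1 (−3.51), as log2 differences. This contrast was added after seeing the data and shares its MSC libraries with the genotype comparison, so it is not independent of it. Sex-linked transcripts cannot be told apart from genotype in it. Idi1 lost the call in 9 alternatives and Msmo1 in 8.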

How the results depend on the processing

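No value of a named member changed direction under any alternative run. Of the values of named members under an alternative, 613 that left out 1 library and 344 others stayed on their side of the threshold, 83 and 20 lost the call, and 2 others gained it. In KO_MSC_AML against WT_MSC_AML, leaving out 1 library gave 9 to 20 members. In KO_MSC against WT_MSC it gave 55 to 6242 genes and 0 to 15 members, and the libraries with Ddx3y and little Xist gave 8178 genes and 21 members. DESeq2 gave 3267 genes and 4 members there, and 1 model over the 4 MSC groups 2977 and 4. In WT_MSC_AML against WT_MSC, DESeq2 gave 532 genes and 2 members, the single model 151 genes, and leaving out 1 library 26 to 255 genes. In KO_MSC_AML against KO_MSC, RLE gave 58 genes, DESeq2 1808, no filter 214, the single model 935, and leaving out 1 library 0 to 1324 genes and 0 to 2 members. DESeq2 called 28 genes in the interaction, and leaving out 1 library 0 to 81. In KO_AML against WT_AML, DESeq2 gave 20 genes, no filter 49 and leaving out 1 library 1 to 28. The added difference between the AML and MSC contrasts gave 1142 to 2216 genes and 3 to 7 members. DESeq2 moved the share of higher calls to 51.3% in WT_MSC_AML against WT_MSC (86.0% with edgeR) and to 49.3% in KO_MSC_AML against KO_MSC (76.0%). The median level of the members in AML cells was 65.8 CPM with factors from the 6 AML libraries and 51.6 CPM with those from all 22. The cause was not tested for any of these.

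Equal replicate numbers showed no pairing that held for all numbers of a comparison (correlations of deviations from −0.39 to 0.32), so the replicate block is given once. With 3 or 4 numbers per comparison, the check cannot exclude pairing, under these numbers or others. The descriptions of the KO_MSC_AML libraries carry other numbers than their titles, whose numbers are used throughout, so the check and the block rest on the titles there. With it, KO_MSC against WT_MSC gave 270 genes and 1 member, WT_MSC_AML against WT_MSC 25 genes, KO_MSC_AML against WT_MSC_AML 1142 genes and 5 members, and KO_AML against WT_AML 58 genes and 1 member.

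Depth limits Abcg1 in MSC and Abca1 in AML cells, which rest on few counts, and groups of 3 to 5 libraries limit the rest.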
